A study of Mus musculus with 20 samples.

Results

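Treg suppressor molecules are taken here as 8 genes, Il2ra, Ctla4, Lrrc32, Il10, Ebi3, Fgl2, Gpr83 and Lgals1, picked by symbol. All 8 were found among the 16740 genes of the spleen and pLN count table and among the 16784 genes of the mLN count table, and all 8 had at least 1 count in each. The libraries came from C57BL/6 mice of 14 weeks that carried Foxp3Cre, a YFP-Cre fusion expressed from the Foxp3 locus. WT mice had Foxp3Cre alone, and DKO mice were Tet2/3 fl/fl Foxp3Cre, so that Tet2 and Tet3 were deleted only where Foxp3 was or had been expressed. From each genotype CD4+YFP+ cells (Treg cells) and CD4+YFP- cells (CD4+Foxp3- cells) were sorted, in 2 replicates per group from pooled spleen and peripheral lymph nodes (pLNs) and in 3 replicates per group from mesenteric lymph nodes (mLN). CD25, the product of Il2ra, was not a criterion of the sort. The CD4+Foxp3- cells of DKO mice can include ex-Treg cells, which once expressed Foxp3 and had then lost it. Of the DKO littermates used for spleen and pLNs, 1 had the more severe splenomegaly, and the labels do not say which replicate it was. Nor do they tell which mouse a replicate number stands for, so p-values measure the spread between these libraries.

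Treg cells restrain other lymphocytes by several routes: they take up IL-2 through a high-affinity receptor, remove costimulatory ligands from antigen-presenting cells, release active TGF-beta, and secrete inhibitory cytokines and lectins. The proteins of Il2ra, Ctla4, Lrrc32 and Gpr83 sit in the cell membrane, while those of Il10, Ebi3, Fgl2 and Lgals1 are secreted. TET2 and TET3 oxidise methylated cytosine, mostly in CpG dinucleotides, which is a step towards its removal from DNA.

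The promoters of 5 of the 8 members were found in RefSeq's table of mouse promoters (GRCm38.p6, 250 bases before to 50 after the start), and the windows of Il2ra and Gpr83, lower in DKO Treg cells of mLN, and of Ctla4 and Fgl2, higher in DKO CD4+Foxp3- cells of mLN, are printed to show the CpG dinucleotides in them. CpG dinucleotides are in capitals, each sequence runs 5' to 3' on the + strand, and the windows are chr2:11642542-11642841, chr9:14859960-14860259, chr1:60908775-60909074 and chr5:21372423-21372722.
Il2ra: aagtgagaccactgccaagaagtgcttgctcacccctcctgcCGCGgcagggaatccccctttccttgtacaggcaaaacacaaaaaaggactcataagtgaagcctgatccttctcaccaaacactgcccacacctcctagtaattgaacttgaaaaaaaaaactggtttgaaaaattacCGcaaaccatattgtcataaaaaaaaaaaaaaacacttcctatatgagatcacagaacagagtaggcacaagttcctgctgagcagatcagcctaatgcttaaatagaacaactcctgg
Gpr83: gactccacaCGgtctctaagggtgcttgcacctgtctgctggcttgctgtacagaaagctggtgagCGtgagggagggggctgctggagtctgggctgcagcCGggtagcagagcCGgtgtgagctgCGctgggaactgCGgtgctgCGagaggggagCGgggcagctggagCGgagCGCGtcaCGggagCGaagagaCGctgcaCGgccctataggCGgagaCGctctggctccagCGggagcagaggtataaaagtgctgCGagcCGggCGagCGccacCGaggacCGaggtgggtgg
Ctla4: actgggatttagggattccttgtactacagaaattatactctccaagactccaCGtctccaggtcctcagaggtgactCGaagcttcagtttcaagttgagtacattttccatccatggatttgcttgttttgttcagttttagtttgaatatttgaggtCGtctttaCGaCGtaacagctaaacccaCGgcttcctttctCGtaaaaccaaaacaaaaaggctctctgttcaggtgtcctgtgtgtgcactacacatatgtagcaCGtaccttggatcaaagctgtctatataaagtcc
Fgl2: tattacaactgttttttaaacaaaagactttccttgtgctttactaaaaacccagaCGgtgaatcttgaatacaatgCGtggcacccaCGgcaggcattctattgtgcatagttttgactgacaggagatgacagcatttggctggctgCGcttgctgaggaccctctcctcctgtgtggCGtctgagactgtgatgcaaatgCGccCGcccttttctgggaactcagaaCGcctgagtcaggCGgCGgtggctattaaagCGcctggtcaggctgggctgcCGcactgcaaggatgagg
The Il2ra window held 3 CpG dinucleotides, the Ctla4 window 8, the Fgl2 window 12 and the Gpr83 window 24, against a median of 7 over 32851 windows of the same length. Among those windows 23.3% held fewer than Il2ra, 51.4% fewer than Ctla4, 60.4% fewer than Fgl2 and 80.0% fewer than Gpr83. The fifth window, that of Ebi3, held 2, and 14.1% of windows held fewer. Of the members lower in DKO Treg cells, Il2ra thus lay in the lower and Gpr83 in the upper part of the range of CpG content. A STAT5-type motif, TTCNNNGAA on either strand, matched once in the Fgl2 window and in 8.3% of all windows, and the forkhead motif GTAAACA matched in none of the 5 windows and in 3.65% of all. TATAAA on either strand matched once each in the Ctla4 and Gpr83 windows and in 13.6% of all.

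Each library held between 9998478 and 15449158 counts. Levels of a gene are given as CPM, read counts scaled to a common library size after TMM normalization, on which 3 counts, taken as the floor of a library, stand for 0.172 to 0.299 CPM. Foxp3, the lineage factor of Treg cells, lay between 153 and 419 CPM in the Treg libraries and between 0.211 and 2.75 CPM in the CD4+Foxp3- libraries. The summed level of the 3 Treg markers Foxp3, Ikzf2 and Ikzf4 was 535 to 782 CPM in Treg libraries and 33.6 to 74.4 CPM in CD4+Foxp3- libraries, except for 179.7 CPM in DKO CD4+Foxp3- replicate 1 of spleen and pLNs. In that library Ikzf2 was at 178 CPM, against 45.4 CPM in DKO replicate 2, while Ikzf4 was at 1.32 and Foxp3 at 0.251 CPM. Tet2 was at 1.11 to 2.08 CPM in WT and 2.05 to 8.01 CPM in DKO Treg cells of spleen and pLNs, and at 10.4 to 10.8 and 7.69 to 12.8 CPM in those of mLN. Tet3 in mLN Treg cells was at 69.0 to 86.5 CPM in WT and 48.4 to 73.3 CPM in DKO. Counts over whole genes cannot check a deletion of part of each gene. The T cell gene Cd3e was at 474 to 791 CPM in all libraries. Of the markers of other cells, the summed level of 11 myeloid markers (of 14 symbols listed) was 3.89 to 6.25 CPM in WT and 17.6 to 58.2 CPM in DKO Treg cells of mLN, and 9.38 to 11.1 and 11.2 to 30.7 CPM in CD4+Foxp3- cells. In spleen and pLNs 13 myeloid markers summed to 4.84 to 8.14 CPM in WT and 16.2 to 42.4 CPM in DKO Treg cells, and to 11.7 to 13.2 and 34.5 to 63.5 CPM in CD4+Foxp3- cells. In WT libraries Itgax, Cd14 and Adgre1 were at 0 in mLN Treg cells, Cd14 and Csf1r in mLN CD4+Foxp3- cells, and S100a8 and S100a9 in both populations of spleen and pLNs, where Cd14 and Clec7a were also at 0 in CD4+Foxp3- cells. Among DKO libraries, replicate 2 of mLN stood apart in 3 plasma cell markers, which summed to 469 CPM in Treg and 539.5 CPM in CD4+Foxp3- cells, against 3.21 to 54.1 CPM in the other DKO libraries of mLN. All 3 DKO CD4+Foxp3- libraries of mLN, at 13.0 CPM or more, lay above the WT ones at 3.51 to 9.96 CPM, while the DKO Treg libraries, from 3.21 CPM, overlapped the WT ones, which began at 2.66 CPM. These markers summed to 4.02 to 6.07 CPM in WT libraries of spleen and pLNs against 17.9 to 98.3 CPM in DKO Treg and 27.6 to 134 CPM in DKO CD4+Foxp3- cells. A pair of NK cell markers, Ncr1 and Klrb1c, summed to 5.21 to 8.19 CPM in WT against 72.5 to 156 CPM in DKO Treg cells of mLN and to 6.47 to 12.7 CPM against 30.9 to 136 CPM in CD4+Foxp3- cells, and in spleen and pLNs to 6.13 to 7.38 CPM against 88.7 to 113 CPM in Treg and 58.0 to 95.6 CPM against 103 to 211 CPM in CD4+Foxp3- cells. The CD8 T cell markers Cd8a and Cd8b1 summed to 16.03 to 20.8 CPM in WT against 2.95 to 3.94 CPM in DKO Treg cells of mLN. Of these 2 genes 1 was called lower there, and 0 in Treg cells of spleen and pLNs. In mLN Treg cells 6 B cell markers summed to 30.8 to 39.2 CPM in WT and 15.9 to 39.0 CPM in DKO. In CD4+Foxp3- cells the B cell sums were higher in DKO with no overlap, at 5.29 to 6.68 CPM in WT against 8.78 to 20.5 CPM in mLN and 13.2 to 16.3 CPM against 17.96 to 23.6 CPM in spleen and pLNs. The DKO CD4+Foxp3- replicates of spleen and pLNs stood apart from each other in Ctla4 and Tigit, with 344 against 50.4 and 220.0 against 49.2 CPM. The part of these levels in the results of those libraries was not tested.

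A member was called when edgeR's quasi-likelihood test reached a p of 0.05 or less after Benjamini-Hochberg adjustment over all genes with a fold change of at least 1.5; adjusted p is used in this sense throughout, and differences are log2 fold changes with their standard error (SE). In WT mice all 8 members were higher in Treg than in CD4+Foxp3- cells of mLN, where 10.1% of all genes tested were called and 6.91% were called higher in Treg cells. In spleen and pLNs 6 of 8 were called higher, all but Il10 and Lgals1, where 4.0% of genes were called and 2.48% higher. The median log2 difference of the members was 4.04 in mLN and 2.99 in spleen and pLNs; the median over all genes tested was 0 in each.

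Between DKO and WT Treg cells of mLN, 4 of 8 members were called: Il2ra, Lrrc32 and Gpr83 fell, and Lgals1 rose. In that comparison 11.9% of all genes were called, 8.50% higher and 3.43% lower in DKO. The median log2 difference of the 8 members was -1.17, while that of all genes tested was 0.0045. In Treg cells of spleen and pLNs 0 of 8 members were called by edgeR, against 1.74% of genes, and 2 of 8 had an unadjusted p under 0.05, as did 20.4% of genes. DESeq2 also called 0 there, against 4.05% of genes, and the median log2 difference of the members was -0.18. Between DKO and WT CD4+Foxp3- cells, Ctla4, Fgl2 and Lgals1 rose in mLN, 3 of 8 members, where 3.43% of genes were called and 3.12% were higher. Fgl2 was called higher and Lrrc32 lower in DKO CD4+Foxp3- cells of spleen and pLNs, against 0.819% of genes called, 0.770% higher and 0.0489% lower. The Lrrc32 call rested on 4 and 7 counts in the WT libraries against 0 and 0 in the DKO libraries. It ended without TMM (adjusted p = 0.108), with filterByExpr (0.205), with a robust prior (0.0562), with the replicate block (0.0762) and in the fit of the 2 groups alone (0.574). A bulk library cannot tell fewer cells that express a gene from less RNA per cell.

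**Figure D1:**
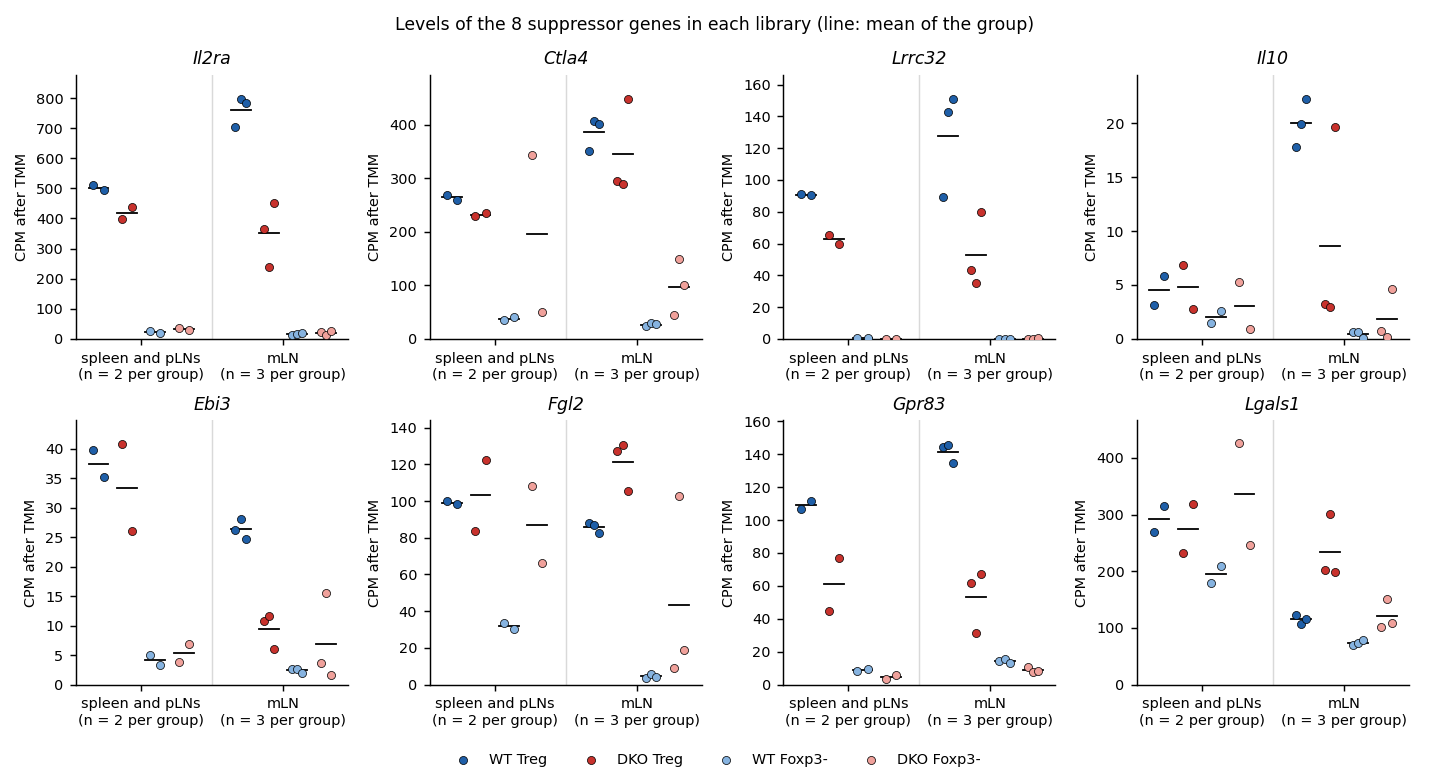
Level of each of the 8 genes in each library, in CPM after TMM normalization on a linear axis from 0, by group (colour) and tissue, with 2 libraries per group in spleen and pLNs and 3 in mLN; the black line is the mean of the group. In mLN the DKO Treg libraries lie below the WT Treg libraries for Il2ra, Lrrc32, Ebi3 and Gpr83 and above them for Fgl2 and Lgals1. The share of all genes with separate ranges was not counted.

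Il2ra (chr2:11564419-11614818 of NCBIM37, + strand) encodes CD25, the alpha chain that gives the IL-2 receptor its high affinity. In mLN the WT Treg libraries held 703, 797 and 783 CPM of Il2ra and the DKO Treg libraries held 364, 239.5 and 449.8 CPM. Every DKO library lay below every WT library, and Il2ra fell 2.17-fold (log2 difference -1.12 ± 0.23, adjusted p = 0.00516). The WT Treg libraries of spleen and pLNs held 511 and 494 CPM and the DKO Treg libraries 399 and 436 CPM. The ranges again did not overlap there, but the log2 difference of -0.27 ± 0.17 did not pass the test (adjusted p = 0.414). Ranges of 2 against 2 libraries often separate without any difference, and the share of all genes with separate ranges was not counted. Other scalings shifted all genes in this comparison: the median over genes of at least 1 CPM was -0.013 with TMM, 0.17 without it and 0.28 on the authors' TPM, where Il2ra was at 0.064 and so still below the median. CD4+Foxp3- cells of mLN held 13.9, 16.6 and 18.2 CPM in WT against 22.3, 12.3 and 25.0 CPM in DKO, and those of spleen and pLNs 26.0 and 19.9 CPM in WT against 36.2 and 30.9 CPM in DKO. Il2ra was therefore far lower outside Treg cells in both genotypes: the WT difference of 47.0-fold in mLN became 17.8-fold in DKO, and 21.9-fold became 12.4-fold in spleen and pLNs, with adjusted p from 1.32e-07 to 1.36e-06. The interaction of genotype and cell type in mLN was -1.40 ± 0.34 on the log2 scale, with adjusted p = 0.117 without and 0.00302 with a block for the Treg and CD4+Foxp3- libraries of the same number. From high to low the order in both tissues was WT Treg, DKO Treg, DKO CD4+Foxp3- and WT CD4+Foxp3- cells, and only the last 2 in mLN overlapped.

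Ctla4 (chr1:60943844-60972676, + strand) encodes a receptor that competes with CD28 for CD80 and CD86. In mLN its levels in Treg cells of the genotypes overlapped: the WT libraries held 351, 407 and 402 CPM and the DKO libraries 296, 289.7 and 449.5 CPM, a log2 difference of -0.16 ± 0.30 (adjusted p = 0.755). Those of spleen and pLNs held 269.9 and 260.3 CPM in WT against 231 and 234 CPM in DKO, a log2 difference of -0.19 ± 0.55 (adjusted p = 0.899) with ranges that did not overlap; on the TPM scale it was 0.14, below the median gene at 0.28. Ctla4 rose in CD4+Foxp3- cells of mLN, from 23.2, 29.0 and 27.0 CPM in WT to 44.0, 148 and 101 CPM in DKO. The ranges did not overlap, and the difference was 3.70-fold (1.89 ± 0.33 on the log2 scale, adjusted p = 0.00979). The call ended in the fit of the 2 groups alone (adjusted p = 0.101) and when any WT library was left out (0.0533 to 0.0653), and without DKO replicate 2 the log2 difference was 1.46 (0.00663). The WT CD4+Foxp3- libraries of spleen and pLNs held 34.4 and 40.2 CPM and the DKO libraries 344 and 50.4 CPM. There DKO replicate 1, the library with the high Ikzf2 level, exceeded all 4 Treg libraries. The log2 difference of 2.40 ± 0.58 did not pass the test (adjusted p = 0.0854). It was 0.43 without DKO replicate 1 and 3.20 without DKO replicate 2, fits that leave 1 DKO library. The level in Treg cells over that in CD4+Foxp3- cells was 14.6-fold in WT and 3.52-fold in DKO cells of mLN (adjusted p = 1.25e-05 and 0.00158). In WT cells of spleen and pLNs it was 7.11-fold (adjusted p = 0.0175). That call ended without TMM (0.0679), with filterByExpr (0.108), with a robust prior (0.317) and by limma on log2(TPM + 1) (0.307). When 1 WT library was left out the log2 difference was 2.72 to 2.95. In DKO cells of spleen and pLNs the level in Treg cells was 1.18-fold that in CD4+Foxp3- cells (adjusted p = 0.910). Without DKO CD4+Foxp3- replicate 1 the log2 difference in DKO cells was 2.20.

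Lrrc32 (chr7:105642732-105650341, + strand) encodes GARP, which holds latent TGF-beta on the surface of Treg cells. The mLN Treg libraries held 89.0, 143 and 151 CPM of Lrrc32 in WT and 43.2, 34.9 and 79.8 CPM in DKO. No DKO library reached the lowest WT library, and Lrrc32 fell 2.43-fold (-1.28 ± 0.26 on the log2 scale, adjusted p = 0.00464). The Treg levels of spleen and pLNs were 91.1 and 90.5 CPM in WT against 65.7 and 60.0 CPM in DKO. That separation, a log2 difference of -0.53 ± 0.17, had an unadjusted p of 0.00843 and an adjusted p of 0.11. CD4+Foxp3- libraries held next to none: in counts, 1, 1 and 1 in WT and 1, 1 and 3 in DKO libraries of mLN, and 4 and 7 in WT and 0 and 0 in DKO libraries of spleen and pLNs. Lrrc32 had the widest gap between the populations of the 8 members in mLN, where Treg cells exceeded CD4+Foxp3- cells 1540-fold in WT (exact 95% interval 527 to 7471) and 379-fold in DKO (162 to 1168), intervals that cover counting error only. In DKO cells of spleen and pLNs Treg cells were at least 283-fold higher than the floor of 3 counts per library, and in WT cells they were 207-fold higher than CD4+Foxp3- cells (adjusted p = 1.5e-07).

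Gpr83 (chr9:14664654-14675233, + strand) encodes a G protein-coupled receptor that is abundant on Treg cells. It had the smallest adjusted p of the 8 members between DKO and WT Treg cells of mLN. The libraries held 144, 146 and 134 CPM in WT against 61.6, 31.2 and 66.9 CPM in DKO. The DKO levels were all under the lowest WT level, and Gpr83 fell 2.66-fold (-1.41 ± 0.21 on the log2 scale, adjusted p = 0.000845). For Treg cells of spleen and pLNs the levels were 107 and 112 CPM in WT against 44.9 and 76.9 CPM in DKO. These ranges did not overlap either, and the log2 difference of -0.84 ± 0.26 had an adjusted p of 0.101. The log2 difference was -1.29 without DKO Treg replicate 2 and -0.51 without DKO Treg replicate 1. Gpr83 was the member whose CD4+Foxp3- level was below WT in every DKO library of both tissues: 14.6, 15.6 and 13.3 CPM in WT against 10.7, 7.60 and 8.31 CPM in DKO in mLN, and 8.28 and 9.41 CPM in WT against 3.20 and 6.00 CPM in DKO in spleen and pLNs. Neither difference was called (-0.72 ± 0.24, adjusted p = 0.128, and -0.95 ± 0.31, adjusted p = 0.18). In spleen and pLNs the log2 difference was -0.56 without DKO replicate 1 and -1.46 without DKO replicate 2. Treg cells exceeded CD4+Foxp3- cells 9.73-fold in WT and 6.01-fold in DKO in mLN, and 12.3-fold and 13.3-fold in spleen and pLNs, with adjusted p from 1.9e-06 to 6.29e-05. The order in both tissues was WT Treg, DKO Treg, WT CD4+Foxp3- and DKO CD4+Foxp3- cells, and no neighbours overlapped.

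**Figure D2:**
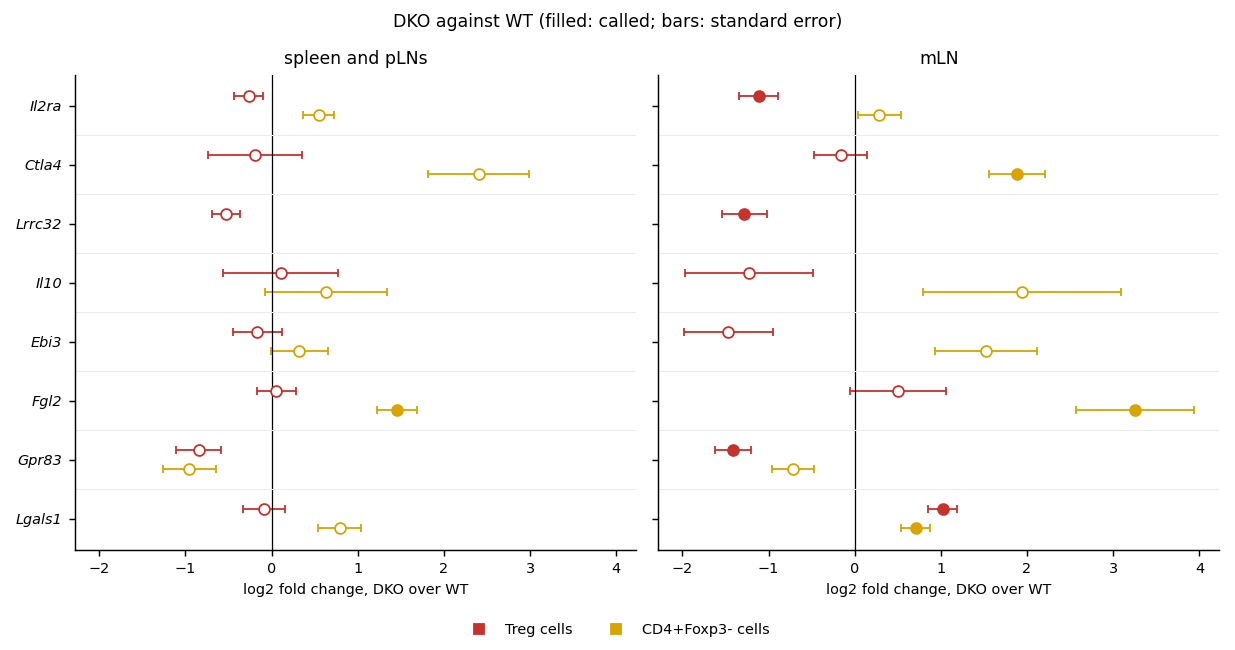
Log2 fold change of DKO over WT with its standard error for each of the 8 genes, in Treg cells (red) and CD4+Foxp3- cells (yellow), in spleen and pLNs (left) and mLN (right); filled points were called by edgeR, and Lrrc32 in CD4+Foxp3- cells is left out because its libraries held 0 to 7 counts. In mLN Treg cells Il2ra, Lrrc32 and Gpr83 are called lower and Lgals1 higher, while in CD4+Foxp3- cells Ctla4, Fgl2 and Lgals1 are called higher.

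Il10 (chr1:132916422-132921551, + strand), an inhibitory cytokine, was the lowest of the 8 members in WT Treg cells by TPM in both tissues. The mLN Treg libraries held 17.8, 19.9 and 22.2 CPM in WT against 3.21, 2.95 and 19.6 CPM in DKO. DKO replicates 1 and 2 lay below all WT libraries and replicate 3 lay among them. The log2 difference of -1.23 ± 0.74 did not pass the test (adjusted p = 0.282), and without DKO Treg replicate 3 it was -2.70 (adjusted p = 0.0262). Spleen and pLN Treg cells held 3.15 and 5.85 CPM of Il10 in WT against 6.87 and 2.80 CPM in DKO, with no difference past the test (0.11 ± 0.66, adjusted p = 0.988). CD4+Foxp3- libraries of mLN held 0.596, 0.608 and 0.0997 CPM in WT against 0.71, 0.211 and 4.6 CPM in DKO, and those of spleen and pLNs 1.44 and 2.57 CPM in WT against 5.27 and 0.889 CPM in DKO. In each tissue the DKO CD4+Foxp3- library with the most Il10 lay above the WT range, and it had the replicate number of the DKO Treg library that also held the most. In WT cells of mLN Treg cells exceeded CD4+Foxp3- cells 42.8-fold (adjusted p = 0.00293). In DKO cells of mLN the difference was 4.76-fold, with adjusted p = 0.088 without and 0.00238 with the block for libraries of the same number, and without DKO CD4+Foxp3- replicate 3 the log2 difference was 4.25 (adjusted p = 0.0117) and without DKO Treg replicate 3 it was 0.78 (0.531). In spleen and pLNs it did not pass the test in WT (1.17 ± 0.69, adjusted p = 0.555) or DKO (0.64 ± 0.66, adjusted p = 0.773), although the WT difference was called in the fit of the 2 groups alone (1.17, adjusted p = 0.000123).

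Ebi3 (chr17:56092046-56096444, + strand) encodes a subunit shared by IL-27 and IL-35. The mLN Treg libraries held 26.3, 28.0 and 24.7 CPM in WT against 10.8, 11.6 and 6.04 CPM in DKO. All DKO libraries were below the WT range, but the log2 difference of -1.47 ± 0.52 had an adjusted p of 0.0653. It was called when only the groups compared entered the fit (adjusted p = 0.00063) and by DESeq2 (0.0392). Treg levels overlapped in spleen and pLNs, with 39.8 and 35.2 CPM in WT against 40.8 and 26.0 CPM in DKO (-0.17 ± 0.28, adjusted p = 0.778), and the sign changed without TMM (0.032) and on the TPM scale (0.13), both below the median gene at 0.17 and 0.28. CD4+Foxp3- libraries of mLN held 2.64, 2.70 and 1.99 CPM in WT against 3.73, 15.6 and 1.68 CPM in DKO. DKO replicate 2 was above the DKO Treg range, and without it the log2 difference of 1.53 ± 0.59 (adjusted p = 0.179) was 0.14; without DKO replicate 3 it was 1.98 and called (adjusted p = 0.0377). The CD4+Foxp3- levels of spleen and pLNs were 5.09 and 3.38 CPM in WT against 3.77 and 6.89 CPM in DKO. Treg cells exceeded CD4+Foxp3- cells 10.7-fold in WT cells of mLN (adjusted p = 0.00168), and 8.83-fold in WT and 6.30-fold in DKO cells of spleen and pLNs (adjusted p = 0.000182 and 0.000565). In DKO cells of mLN the 1.34-fold difference did not pass the test (adjusted p = 0.627), and without DKO CD4+Foxp3- replicate 2 it was called (1.78 on the log2 scale, adjusted p = 0.000565).

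Fgl2 (chr5:20878460-20884192, + strand) encodes a fibrinogen-like protein that is secreted by Treg cells and binds inhibitory Fc receptors; macrophages also express it. In mLN the Treg libraries held 87.9, 87.0 and 82.5 CPM in WT against 127, 131 and 105 CPM in DKO. The DKO range was the higher, yet the log2 difference of 0.50 ± 0.56 did not pass the test (adjusted p = 0.561). Treg cells of spleen and pLNs held 99.9 and 98.1 CPM in WT against 83.8 and 122 CPM in DKO (0.06 ± 0.23, adjusted p = 0.945). In CD4+Foxp3- cells Fgl2 rose in both tissues. The mLN libraries held 3.83, 5.67 and 4.19 CPM in WT against 9.05, 103 and 18.8 CPM in DKO, a 9.52-fold difference (3.25 ± 0.68 on the log2 scale, adjusted p = 0.0215), and without DKO replicate 2 the log2 difference was 1.60 (adjusted p = 0.00282). This call ended with a robust prior (adjusted p = 0.088), in the fit of the 2 groups alone (0.152) and when any WT library was left out (0.0907 to 0.111), and DESeq2 gave Fgl2 no adjusted p in mLN. DKO replicate 2 was at the level of Treg cells. The libraries of spleen and pLNs held 33.4 and 30.1 CPM in WT against 108 and 66.2 CPM in DKO, a 2.74-fold difference (1.46 ± 0.24, adjusted p = 0.0205). That call ended without TMM, with filterByExpr, with a robust prior, with the replicate block (0.0608), in the fit of the 2 groups alone and on the TPM scale. Leaving out 1 library gave log2 differences of 1.06 to 1.76 there. The myeloid, NK, plasma and B cell marker sums given above were also higher in DKO than in WT CD4+Foxp3- cells, and their part in the rise of Fgl2 was not tested. Treg cells exceeded CD4+Foxp3- cells 18.6-fold in WT cells of mLN and 3.11-fold in WT cells of spleen and pLNs (adjusted p = 0.00122 and 0.0017). The latter call ended by limma on log2(TPM + 1) (0.103), and without WT CD4+Foxp3- replicate 2 its log2 difference was 1.57. In DKO cells the differences were 2.75-fold in mLN, with adjusted p = 0.0996 without and 0.0223 with the block, and 1.18-fold in spleen and pLNs (adjusted p = 0.732). The mLN log2 difference of 1.46 in DKO was 3.09 without DKO CD4+Foxp3- replicate 2 (adjusted p = 1.42e-07) and 0.96 without replicate 1 (0.166).

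Lgals1 (chr15:78757155-78760895, + strand) encodes galectin-1, a lectin that binds glycans on T cells. It was the only member called higher in DKO Treg cells. The mLN Treg libraries held 122, 107 and 116 CPM in WT against 202, 300.3 and 199 CPM in DKO. The ranges were far apart, and Lgals1 rose 2.03-fold (1.02 ± 0.17 on the log2 scale, adjusted p = 0.00137). Treg levels again overlapped in spleen and pLNs, with 269.7 and 314 CPM in WT against 232 and 318 CPM in DKO (-0.09 ± 0.24, adjusted p = 0.895), and the sign changed without TMM (0.086) and on the TPM scale (0.23), both below the median gene at 0.17 and 0.28. In CD4+Foxp3- cells of mLN Lgals1 rose from 69.3, 73.4 and 79.4 CPM in WT to 102, 151 and 109 CPM in DKO, 1.63-fold (0.71 ± 0.17, adjusted p = 0.0361). Without DKO replicate 2 that difference was 0.52 on the log2 scale (adjusted p = 0.0757), and the call also ended in the fit of the 2 groups alone (0.114) and when any WT library was left out (0.0973 to 0.15). CD4+Foxp3- cells of spleen and pLNs held 179 and 209.6 CPM in WT against 426 and 246 CPM in DKO, which did not overlap but missed the threshold (0.79 ± 0.25, adjusted p = 0.165). That log2 difference was 0.34 without DKO replicate 1 and 1.13 without DKO replicate 2. Lgals1 was the member with the smallest gap between the populations in WT cells, 1.55-fold in mLN (adjusted p = 0.0216) and a log2 difference of 0.59 ± 0.23 in spleen and pLNs (adjusted p = 0.3), and the mLN call ended without WT Treg replicates 1 or 3 or WT CD4+Foxp3- replicates 1 or 2 (0.0682 to 0.0853). In DKO cells it was 1.94-fold in mLN (adjusted p = 0.00166), while in spleen and pLNs the CD4+Foxp3- mean was the higher (log2 difference -0.29 ± 0.24, adjusted p = 0.696). The myeloid sums were higher in DKO libraries here too, and their part was not tested.

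**Figure D3:**
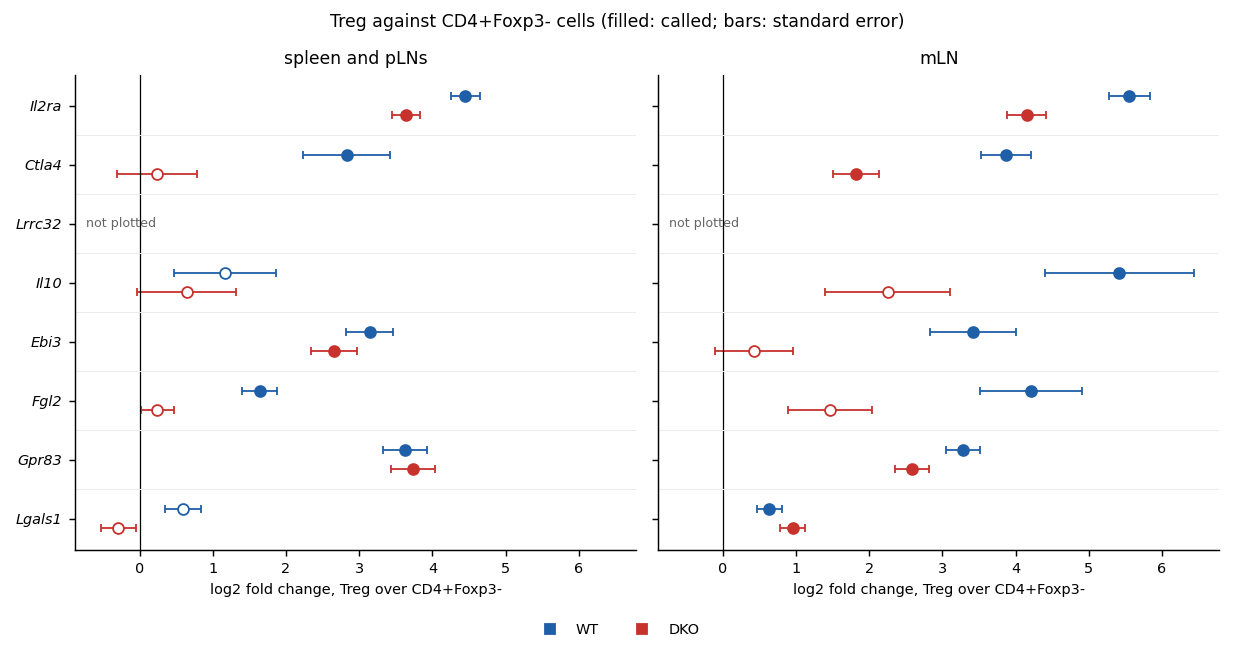
Log2 fold change of Treg over CD4+Foxp3- cells with its standard error, in WT (blue) and DKO (red) mice, in spleen and pLNs (left) and mLN (right); filled points were called by edgeR, and Lrrc32 is not plotted because CD4+Foxp3- libraries held 0 to 7 counts of it. In mLN the DKO value lies below the WT value for all plotted genes but Lgals1.

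Taking Treg against CD4+Foxp3- cells within DKO mice, 5 of 8 members were called higher in Treg cells of mLN, against 11.2% of all genes called and 7.75% higher. They were Il2ra, Ctla4, Lrrc32, Gpr83 and Lgals1, and the block for libraries of the same number added Il10 and Fgl2. From spleen and pLNs 4 of 8 were called higher, against 3.77% of genes called and 2.16% higher: Il2ra, Lrrc32, Ebi3 and Gpr83. The median log2 difference of the members was 2.03 in mLN and 1.65 in spleen and pLNs in DKO, below the WT medians given above. Whether that gap differed between the genotypes was tested by the genotype by cell type interaction, which edgeR called for 0 of 8 members in mLN and 0 of 8 in spleen and pLNs, against 0.280% and 0.00611% of genes. At an unadjusted p under 0.05 the interaction had 6 members in mLN and 5 in spleen and pLNs, against 10.9% and 5.53% of genes. DESeq2 called 3 in mLN (Il2ra, Ctla4 and Ebi3) and 0 in spleen and pLNs, against 2.4% and 0.0672% of genes. With the block edgeR called 1 member, Il2ra, in mLN. The share of all genes called with the block is not given here, so the calls that it added do not set the members apart.

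Levels of different genes were compared per length, on the authors' TPM. In WT Treg cells of mLN Ctla4 had the highest mean, 365 TPM (320.0 to 390.0), followed by Il2ra with 314 TPM (280.1 to 332), Lgals1 with 262 TPM (245 to 272) and Gpr83 with 115 TPM (112 to 119). Lrrc32 with 61.4 TPM (41.1 to 74.1), Fgl2 with 41.5 TPM (41.1 to 42.4), Ebi3 with 41.0 TPM (39.5 to 44.0) and Il10 with 28.0 TPM (24.1 to 31.9) followed. Among neighbours in this order the ranges of Ctla4 and Il2ra, of Lrrc32 and Fgl2 and of Fgl2 and Ebi3 overlapped. In DKO Treg cells of mLN Lgals1 came first with 599 TPM (508 to 750.1), above Ctla4 with 367 TPM (299 to 475). In WT Treg cells of spleen and pLNs the order by mean was Lgals1 (535 TPM), Ctla4 (201 TPM), Il2ra (166 TPM), Gpr83 (71.1 TPM), Ebi3 (47.0 TPM), Fgl2 (38.5 TPM), Lrrc32 (34.9 TPM) and Il10 (5.03 TPM). Lgals1 there lay above Ctla4 in both libraries, the reverse of the order in mLN; the tables of the tissues were normalized separately, so no test between them was made.

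Of 49 other genes of the same pathways, 47 were in the mLN table and 48 in the spleen and pLN table. Between DKO and WT Treg cells of mLN 6 of 47 were called higher and 6 lower, where 8.50% and 3.43% of all genes were called,, with a median log2 difference of -0.04. Among those of spleen and pLNs 0 were called higher and 1 of 48, Nrp1, lower, near the 1.74% of all genes called there. In CD4+Foxp3- cells 12 of 47 were called higher and 0 lower in mLN, where 3.12% of all genes were called higher, and 1 of 48, Areg, higher in spleen and pLNs, where 0.819% of all genes were called. None of the 7 partners of CD25 in IL-2 signalling was called in any of these 4 comparisons. At most 11.9% of all genes were called in any of them, so 0 of 7 does not set these partners apart. Il2rb, the beta chain, held 958, 986 and 998 CPM in WT against 1057, 789 and 1002 CPM in DKO Treg cells of mLN (-0.05 ± 0.24, adjusted p = 0.953), and Il2rg, the common gamma chain, had a log2 difference of -0.22 ± 0.09 (adjusted p = 0.113).

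Around CTLA-4, 1 of 5 partners was called in mLN Treg cells, where 11.9% of all genes were called. Icos, a costimulatory receptor, rose from 353, 363 and 359 CPM to 781, 954 and 745 CPM (1.21 ± 0.38 on the log2 scale, adjusted p = 0.0409). Cd28, which shares its ligands, had a log2 difference of 0.18 ± 0.18 (adjusted p = 0.523). Of the 5 genes of the GARP and TGF-beta route, Itgb8, the integrin chain that frees active TGF-beta from GARP, rose in mLN Treg cells, from 13.6, 10.8 and 10.5 CPM to 33.8, 19.3 and 17.7 CPM (1.02 ± 0.28, adjusted p = 0.0235), as Lrrc32 fell. It also rose in CD4+Foxp3- cells, from 1.02, 1.42 and 1.10 CPM to 3.02, 6.97 and 5.83 CPM (2.14 ± 0.36, adjusted p = 0.00893). Tgfb1, the cytokine itself, held 215, 223 and 239.8 CPM in WT against 204, 210.3 and 177 CPM in DKO Treg cells (-0.20 ± 0.17, adjusted p = 0.451).

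Among 5 genes of the IL-10 axis, Prdm1, a transcription factor of effector Treg cells, fell in mLN Treg cells from 36.6, 34.7 and 36.0 CPM to 9.70, 15.3 and 17.6 CPM (-1.33 ± 0.31, adjusted p = 0.0092). Il10ra, the receptor chain that binds IL-10, had a log2 difference of -0.31 ± 0.21 (adjusted p = 0.343). Il27, whose product pairs with EBI3, was not analysed here. Beside Ebi3, Il12a, which encodes the other subunit of IL-35, was read from the spleen and pLN table alone, where no library held more than 1 count. Of the 4 receptor genes of IL-35 and IL-27 in the mLN table, Il12rb2 rose in Treg cells from 0.329, 0.165 and 0.59 CPM to 6.64, 3.09 and 6.38 CPM (3.89 ± 0.63, adjusted p = 0.00121), and Il12rb1 fell from 47.9, 54.0 and 54.0 CPM to 32.3, 34.6 and 36.0 CPM (-0.60 ± 0.17, adjusted p = 0.0261). Of the 3 genes listed with FGL2, the Fc receptors Fcgr2b and Fcgr3 and the inhibitory receptor Tigit, none was called in Treg cells. There 11.9% of all genes were called in mLN and 1.74% in spleen and pLNs. Tigit rose in CD4+Foxp3- cells of mLN (2.59 ± 0.49, adjusted p = 0.0152).

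The other galectins on the list moved apart in mLN Treg cells. Lgals3, galectin-3, rose from 1.81, 1.74 and 1.48 CPM to 5.42, 19.5 and 12.3 CPM (2.88 ± 0.63, adjusted p = 0.00697), and Lgals9, galectin-9, fell from 250.3, 254 and 245 CPM to 146, 132 and 167 CPM (-0.75 ± 0.19, adjusted p = 0.0132). Lgals3 is also abundant in macrophages, and the part of the myeloid markers in its rise was not tested. Of 10 other suppressor genes, Nrp1, a coreceptor that keeps Treg cells stable, fell from 346, 341 and 308 CPM to 103, 94.4 and 114 CPM (-1.68 ± 0.19, adjusted p = 0.000166), and in spleen and pLNs from 478 and 368 CPM to 157 and 201 CPM (-1.24 ± 0.27, adjusted p = 0.0424). Entpd1, the ectonucleotidase CD39, fell in mLN from 69.5, 71.7 and 63.6 CPM to 19.4, 18.8 and 28.3 CPM (-1.63 ± 0.40, adjusted p = 0.0129). Pdcd1, the inhibitory receptor PD-1, rose from 101, 94.8 and 79.7 CPM to 295, 256 and 302 CPM (1.63 ± 0.28, adjusted p = 0.00188), and Areg, a tissue repair factor, rose 2.11 ± 0.50 on the log2 scale (adjusted p = 0.0111). Nrp1 was also called by the interaction in mLN (-2.60 ± 0.28, adjusted p = 0.00588), and it rose in CD4+Foxp3- cells (0.92 ± 0.20, adjusted p = 0.0234). Of the 3 lineage factors, Foxp3 held 310.0, 299 and 326 CPM in WT against 277, 308 and 329 CPM in DKO Treg cells of mLN (-0.03 ± 0.24, adjusted p = 0.979), while Ikzf4, which encodes Eos, fell from 68.0, 76.7 and 71.4 CPM to 27.6, 27.8 and 25.1 CPM (-1.42 ± 0.19, adjusted p = 0.000397). For spleen and pLNs, Foxp3 held 165 and 153 CPM in WT against 419 and 235 CPM in DKO Treg cells (1.04 ± 0.25, adjusted p = 0.0607).

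**Figure D4:**
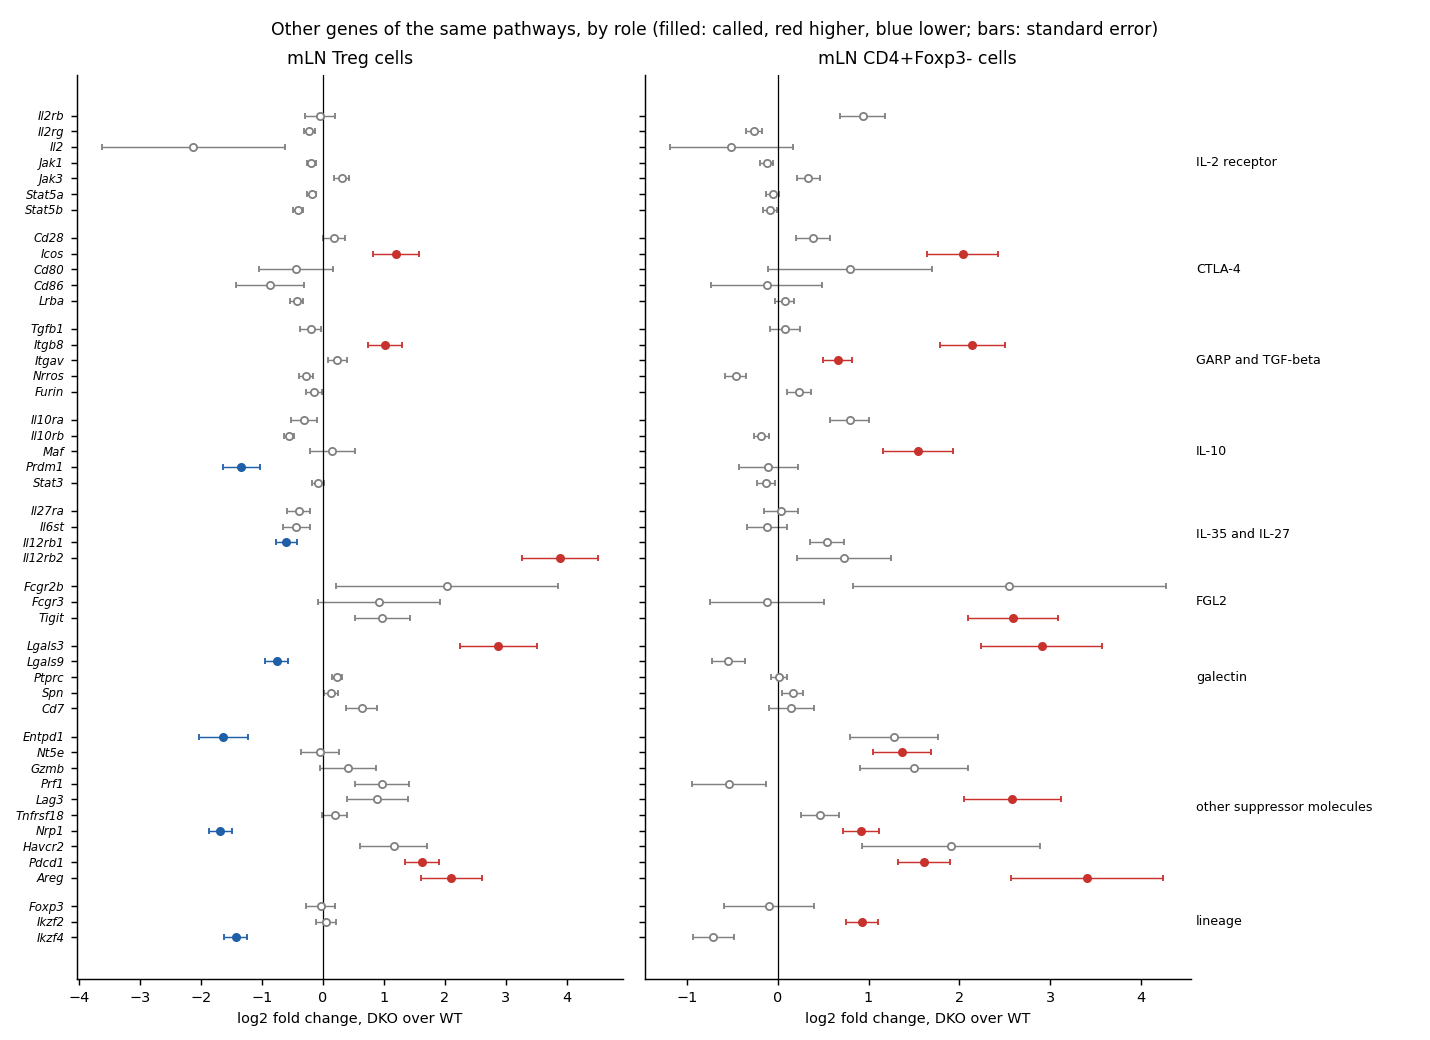
Log2 fold change of DKO over WT with its standard error for the 47 other genes of the same pathways in mLN, in Treg cells (left) and CD4+Foxp3- cells (right), grouped by role as written at the right; filled points were called by edgeR (red higher, blue lower). In Treg cells 6 genes are called higher and 6 lower, and in CD4+Foxp3- cells 12 higher and 0 lower.

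The genes whose pattern was most like that of each member were taken as the 3 with the highest Pearson r of log2 CPM over the 12 mLN libraries, among genes whose mean reached 10 CPM; the libraries fall into 4 groups, so r describes mainly the group levels. For Il2ra they were Lrrc32 (0.995), Phtf2 (0.993) and Gm4956 (0.992), and for Lrrc32 they were Il2ra (0.995), Vav2 (0.991) and Phtf2 (0.990). Il2ra and Lrrc32 were thus each other's nearest gene, and over the 8 libraries of spleen and pLNs their r was 0.960. Among those nearest to Ctla4 were Capg (0.984) and Il2rb (0.983), and for Gpr83 they were Rgs1 (0.982), Tank (0.981) and Mbnl3 (0.979). Of the secreted members, Fgl2 was nearest to Ccr4 (0.994), Rnf216 (0.990) and Rabgap1l (0.987), and Lgals1 to Bcl2a1a (0.995), Bcl2a1d (0.988) and Tfdp1 (0.983), where the Bcl2a1 genes are near-identical copies whose reads may be split. Ebi3 was nearest to Eva1b (0.961), Zcchc18 (0.956) and Mea1 (0.952), and Il10 to Rcn1 (0.949), Sec24a (0.935) and Gbp3 (0.935). In spleen and pLNs the r of the nearest gene was 0.980 for Fgl2 and Gpr83, 0.561 for Lgals1 and 0.452 for Il10.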

How the data were processed

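RNA sequencing of 20 sorted libraries was used, 8 from spleen and pLNs and 12 from mLN. The deposited counts are whole numbers of reads per RefSeq gene symbol, which the authors aligned to mm9 with TopHat2 (2.1.1, at most 1 alignment per read) and counted by strand with featureCounts (Subread 1.4.3-p1); they are not normalized. The TPM were deposited beside them and sum to the same total in each library; how the authors computed them is not given in the sources used here. All columns were used.

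Members and gene lists were chosen with earlier results of these data known. Counts of the 4 groups of a tissue were fitted together with edgeR 4.0.16 (limma 3.58.1, R 4.3.3): TMM normalization, genes with at least 1 count in total (16357 in spleen and pLNs, 16784 in mLN), the quasi-likelihood test and Benjamini-Hochberg adjustment over all genes. The floor was 3 counts per library. CPM of log2 comparisons used a prior count of 2. Positions are those of GENCODE M1 on NCBIM37, the assembly of mm9, while the promoters are of GRCm38.p6. Named were all members, 10 fixed partners, up to 3 called genes per role and the 3 genes most like each member, of which 1 is not reported here. In mLN, r of deviations from the group means was 0.138 to 0.544 in the 6 pairs of same-numbered Treg and CD4+Foxp3- libraries of a genotype. Fits with those pairs as a block were therefore run. The lowest r, that of DKO number 1, was below the 0.178 of DKO Treg replicate 3 with DKO CD4+Foxp3- replicate 1. For WT and DKO libraries of a number in mLN r was -0.053 to 0.234, not over 0.1 in every pair, and they were not taken as paired. In spleen and pLNs r of same-numbered libraries was 0.309 to 0.319 between cell types and 0.298 to 0.305 between genotypes. Simulated counts were used to test the fit between DKO and WT Treg cells: of 100 genes changed 2-fold, 48 were called in spleen and pLNs (15804 genes) and 77 in mLN (16331 genes). Replicates of a group differed by more than sampling noise, and more so in DKO than in WT. Chi-square per degree of freedom was 3.7 and 5.0 in WT against 46.1 and 71.9 in DKO pairs of spleen and pLNs. In mLN it was 3.19 to 7.07 in WT against 12.4 to 55.9 in DKO pairs. The fit of 4 groups shared 1 estimate of the spread. The simulated counts gave all groups the same spread, so their rates of calling need not hold for these data. Alternatives were DESeq2 1.42.0, its size factors, library totals without TMM, filterByExpr, a robust prior, only the groups compared, replicate blocks, no fold change minimum, leaving out each library and, chosen after seeing the data, limma on log2(TPM + 1).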

Additional observations from a re-analysis of the deposited data

Results flagged for a closer look

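For Il2ra in mLN, the DKO effect differed between Treg and CD4+Foxp3- cells by a test of the difference itself: with a block for libraries of the same number, the interaction was -1.40 on the log2 scale (edgeR adjusted p = 0.00302). In that tissue Il2ra was lower in 3 of 3 DKO Treg libraries than in any WT Treg library, while the CD4+Foxp3- libraries of the genotypes overlapped. Without the block the adjusted p was 0.117.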

How the results depend on the processing

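In the Treg comparison of mLN, Il2ra, Lrrc32, Gpr83 and Lgals1 were called under every alternative run. All other calls of members between DKO and WT were lost under at least 1 alternative, and calls of other genes were not followed through the alternatives. In CD4+Foxp3- cells of mLN 3 members were called, but 1 with a robust prior, 0 with only the groups compared and 0 by limma on log2(TPM + 1); in those of spleen and pLNs 2 were called, but 0 without TMM, with filterByExpr, with a robust prior, with only the groups compared, with the replicate block or by limma on log2(TPM + 1). Gpr83 in Treg cells of spleen and pLNs was called with only the groups compared, giving 1 member in place of 0. The interaction in mLN called 3 members with DESeq2 and 1 with the replicate block nested in genotype, against 0. Apart from DESeq2, the share of all genes called under these settings is not given here, so these counts do not set the members apart. Signs of uncalled members in Treg cells of spleen and pLNs changed without TMM for Ebi3 (0.032) and Lgals1 (0.086), with the replicate block for Il10 (-0.047), and by limma on log2(TPM + 1) for Il2ra (0.064), Ctla4 (0.14), Ebi3 (0.13) and Lgals1 (0.23); the median over genes of at least 1 CPM there moved from -0.013 to 0.17 without TMM and to 0.28 on TPM, above each of these members' values under the same setting. The replicate block ended the call of Ctla4 between WT cell types in spleen and pLNs (adjusted p = 0.0544), and nested in genotype it ended those of Ctla4 (0.113) and Fgl2 (0.0649), with only 2 pairs per comparison; Ebi3 in mLN Treg cells was called with a replicate block between WT and DKO (-1.55, adjusted p = 0.0256), and the block changed no other count of members by more than 1.5 times. The cause of these changes was not tested.

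Leaving out each library in turn moved the number of members called from 0 to 4 in mLN CD4+Foxp3- cells (0 without any WT replicate), 0 to 6 in those of spleen and pLNs (6 without DKO replicate 2), 0 to 1 in spleen and pLN Treg cells, and 0 to 3 in mLN and 0 to 4 in spleen and pLNs for the interaction. Directions turned as follows. Between DKO and WT Treg cells of spleen and pLNs the log2 difference ran from -0.53 to 0.12 for Ebi3, -0.24 to 0.30 for Fgl2, -0.69 to 0.62 for Il10 and -0.33 to 0.12 for Lgals1. Between DKO and WT CD4+Foxp3- cells it ran from -0.17 to 0.69 for Ebi3 and -1.17 to 1.39 for Il10 in spleen and pLNs, and from -0.062 to 2.51 for Il10 and -0.056 to 1.03 for Lrrc32 in mLN. Between Treg and CD4+Foxp3- cells of DKO mice it ran from -0.56 to 2.20 for Ctla4, -0.069 to 0.63 for Fgl2, -0.16 to 2.44 for Il10 and -0.63 to 0.16 for Lgals1 in spleen and pLNs, and from -0.033 to 1.78 for Ebi3 in mLN. The interaction in spleen and pLNs ran from -0.86 to 0.0058 for Ebi3, -0.33 to 0.62 for Gpr83 and -1.33 to 1.27 for Il10. With 2 libraries per group, leaving one out leaves a lone library that is assumed to vary like the other groups, so only effect sizes are given for those fits. Depth limits Lrrc32 in CD4+Foxp3- cells, at 0 to 7 counts per library, and Il10 there in mLN, at 1 to 52.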
